A study of Mus musculus with 15 samples.

Results

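Tgm2 encodes transglutaminase 2, the enzyme that attaches dopamine to histone H3, and it was followed here together with 9 genes whose products write, read or erase the methyl mark on the neighbouring lysine. The 10 genes were taken by name: Tgm2, Wdr5, Kmt2a, Kmt2b, Kmt2c, Kmt2d, Setd1a, Setd1b, Kdm5b and Kdm5c. All 10 were present among the 32285 genes of each of the 15 count tables, and the rule that names them uses no measured value. Their counts were read in 24 classes of nuclei defined by marker genes and in the sum of all nuclei of a mouse.

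Transglutaminase 2 normally cross-links proteins, and in the nucleus it can also join a monoamine such as dopamine to glutamine 5 of the histone H3 tail (H3Q5). That residue sits beside lysine 4 (H3K4), whose trimethylated form marks the promoters of active genes, so that both marks can occur on a single tail. Kmt2a, Kmt2b, Kmt2c, Kmt2d, Setd1a and Setd1b encode the catalytic subunits of the complexes that methylate H3K4. Wdr5 encodes a scaffold of those complexes that also binds the H3 tail, and Kdm5b and Kdm5c encode demethylases that remove the methyl groups.

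The study profiled single nuclei (snRNA-seq) from the dorsal hippocampal formation (dHF) of 15 wild-type C57BL6/J female mice to follow the lasting effects of reproductive experience (RE) and of stress after birth. The 6 NP mice were nulliparous virgins of matched age. The 4 control RE mice (labelled ControlPP) had been bred, had given birth and had raised their pups to weaning. The 5 stress RE mice (StressPP) had the same experience, but were separated from their pups daily and given less nesting material from the middle of lactation almost to weaning. A dam therefore differed from an NP mouse in mating, pregnancy, birth, lactation and pup contact at once. Each mouse gave 1 library, made from 4 pooled micropunches taken on both sides of the brain. Mice are separate animals, so the spread between libraries of a group holds biological and technical differences together. Batch 1 held 2 NP mice and 1 stress RE mouse but no control RE mouse, and batches 2 and 3 held 2 mice of every group.

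The libraries held 40602582 to 96211264 unique molecular identifiers (UMIs, each standing for 1 captured RNA molecule), and 123913 of 134019 barcodes were kept as nuclei. Of these, 7.08% stayed unnamed. The punches also held neurons of neighbouring regions, with 6839 thalamic and 1195 habenular nuclei. The region of the 4878 Gata3 GABAergic nuclei (48 to 895 per mouse) and the 1852 striatal-type projection nuclei was not determined. Stress RE mouse 75 gave 44.8% of the striatal-type nuclei. A shallow unnamed cluster of 4508 nuclei (median of 1233 UMIs) made up 18.5% of the nuclei of NP mouse 31 and 9.29% of those of stress RE mouse 70, against 0.804% to 6.61% in the other mice, and NP mouse 31 had the lowest UMI total of all libraries. Values without these mice are given for several of the group differences that turn on them. A pair of libraries shared 6 to 47 barcode sequences (median of 21 over 105 pairs).

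All 10 genes are protein coding (GENCODE annotation of GRCm38). Tgm2 lies on the minus strand of chromosome 2 at chr2:158116402-158146436, where Rprd1b and Gm20412 overlap it on the opposite strand. On the same chromosome is Wdr5, at chr2:27515157-27536535 on the plus strand. The KMT2 genes are all on the minus strand, Kmt2a at chr9:44803355-44881296, Kmt2b at chr7:30568858-30588726, Kmt2c at chr5:25271798-25498783 and Kmt2d at chr15:98831669-98871204. Setd1a (chr7:127776670-127800122), Setd1b (chr5:123142193-123168629), Kdm5b (chr1:134560171-134635285) and Kdm5c (chrX:152233020-152274535) are on the plus strand. AC061963.1 overlaps Kmt2a on the opposite strand, and none of the 10 overlaps another counted gene on its own strand. Gene bodies run from 19.9 kb for Kmt2b to 227 kb for Kmt2c, and nuclear RNA holds many unspliced transcripts, so levels are compared between classes and groups for 1 gene at a time and not between genes.

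The 250 bases before the transcription start were in the RefSeq promoter table (GRCm38.p6) for 7 of the 10 genes, all but Tgm2, Kmt2b and Setd1b. RefSeq starts can differ from the GENCODE starts above: the window of Setd1a (chr7:127777139-127777388) lies inside the GENCODE gene, and most of that of Kdm5c (chrX:152232977-152233226) lies past its GENCODE start. The promoters found held 10 to 48 CpG dinucleotides, against a median of 6 over the 27025 promoters of the table, and all 7 lay above that median. The letters of a GC box (GGGCGG or its reverse complement CCGCCC) occurred in 5 of the 7, against 32.9% of all promoters, and those of a TATA box (TATAAA or TTTATA) in 0 of the 7, against 13.0%. The sequences of Kmt2a and Kmt2c are shown because these genes had the most clearly opposed patterns over cell classes. They are written in the direction of transcription with every GC box in capitals, adjoining boxes run together.
Kmt2a (chr9:44881290-44881539, minus strand): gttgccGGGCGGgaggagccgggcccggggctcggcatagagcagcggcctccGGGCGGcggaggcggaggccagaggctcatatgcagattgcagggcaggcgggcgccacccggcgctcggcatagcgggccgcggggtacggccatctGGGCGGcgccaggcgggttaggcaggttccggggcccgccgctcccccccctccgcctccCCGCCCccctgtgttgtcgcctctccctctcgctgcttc
Kmt2c (chr5:25498784-25499033, minus strand): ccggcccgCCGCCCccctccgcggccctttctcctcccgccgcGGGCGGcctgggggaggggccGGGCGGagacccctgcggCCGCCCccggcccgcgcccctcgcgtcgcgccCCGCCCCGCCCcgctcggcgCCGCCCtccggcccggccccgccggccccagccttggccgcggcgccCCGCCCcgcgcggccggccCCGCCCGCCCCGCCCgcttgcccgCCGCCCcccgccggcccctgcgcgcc
Both are GC rich, at 76.8% GC with 29 CpG and 4 GC boxes for Kmt2a and 91.6% GC with 48 CpG and 12 GC boxes for Kmt2c.

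Tgm2 was highest in vascular and microglial nuclei. Its mean level was 91.0 ± 34.7 CPM in endothelial nuclei, the cells that line blood vessels (CPM, counts per 1e6 UMIs of the class in a mouse; mean ± SD over 15 mice). Microglia, the resident immune cells of the brain, followed at 16.0 ± 6.13 CPM, vascular leptomeningeal cells (fibroblasts of the vessel sheath and the meninges) at 10.6 ± 4.92 CPM, and pericytes or smooth muscle cells at 7.36 ± 11.4 CPM. The last of these means rested on 10 UMIs, with 9 of 15 mice at 0. Every other class had a mean below 4.2 CPM. Endothelial nuclei were above microglia in 15 of 15 mice, with a ratio of means of 5.68, and this was the only pair of neighbours in the order of the 24 classes whose mean difference within a mouse was larger than the SD of that difference. Microglia were above leptomeningeal cells in 10 of 15 mice only, and above granule neurons of the dentate gyrus in 15 of 15. The lower part of the order, from 4.17 CPM in progenitors or neuroblasts (n = 10) to 0.425 ± 0.889 CPM in CA2 neurons, held no neighbours that differed beyond their spread.

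**Figure D1:**
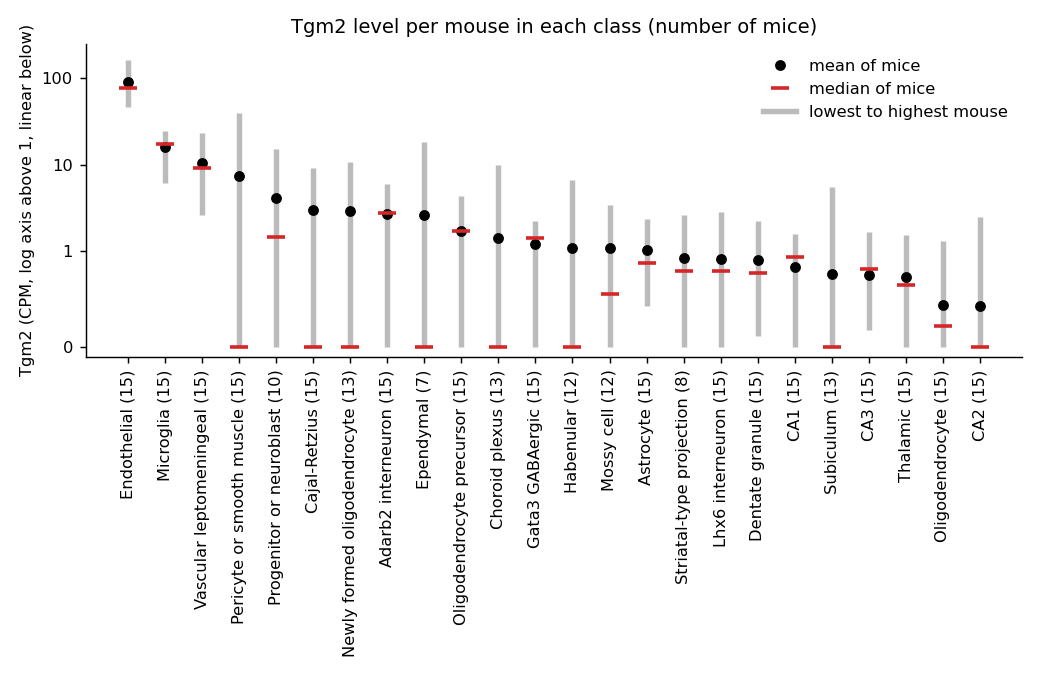
Level of Tgm2 in each class of nuclei (CPM, log axis above 1 and linear below), with the number of mice that had at least 10 nuclei of it; black points are means over mice, red dashes medians and grey bars run from the lowest to the highest mouse. Endothelial nuclei, at a mean of 91.0 CPM, stand apart from microglia at 16.0 CPM, and the grey bars of most other classes overlap.

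Neurons had little Tgm2. Dentate granule neurons had 0.912 ± 0.543 CPM, CA1 neurons 0.839 ± 0.531 CPM and CA3 neurons 0.756 ± 0.444 CPM, and among interneurons the Adarb2 class was highest at 2.72 ± 1.58 CPM. Mature oligodendrocytes had 0.441 ± 0.473 CPM and were below dentate granule neurons in 12 of 15 mice. Few molecules stand behind such levels: of 1436 Tgm2 UMIs in all kept nuclei, 312 (21.7%) were in endothelial nuclei, which made up 0.936% of nuclei. Dentate granule neurons held nearly as many, 296 UMIs (20.6%), but made up 25.5% of nuclei and 32.0% of all UMIs. Microglia held 178 UMIs (12.4%). The endothelial part of a mouse's Tgm2 UMIs ran from 3.51% in NP mouse 35 to 53.7% in NP mouse 73.

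The share of nuclei with a Tgm2 UMI gave the same order for the 3 leading classes, while pericytes or smooth muscle cells, the fourth by CPM, had 1.56% (8 of 513 nuclei). At least 1 UMI was found in 18.4% of endothelial nuclei (95% Wilson interval of 16.3% to 20.8%, for counting error only), 3.20% of microglia (2.75% to 3.71%) and 2.96% of leptomeningeal cells. The share in oligodendrocytes was 0.119% (0.0862% to 0.165%), the lowest of the 24 classes. Their median depth was 2504 UMIs, against 2234 in endothelial nuclei and 2062 in microglia. What free RNA alone would give was not measured. Depth matters for such shares, so each nucleus was also thinned to 1000 UMIs, which left out 1084 NP, 684 control RE and 939 stress RE nuclei. After thinning, 8.27% of endothelial nuclei (6.80% to 10.0%), 1.46% of microglia (1.16% to 1.83%), 1.27% of leptomeningeal cells, 0.127% of dentate granule neurons (0.0930% to 0.172%) and 0.0471% of oligodendrocytes (0.0281% to 0.0791%) had a Tgm2 UMI. Adarb2 interneurons, at a median of 11200 UMIs, went from 2.66% to 0.276% (0.0938% to 0.808%), an interval that overlaps that of dentate granule neurons. In CA2, Cajal-Retzius, subicular, mossy and ependymal nuclei 0 thinned nuclei had a Tgm2 UMI (152 to 1000 nuclei a class), with upper Wilson bounds of 0.383% in subicular to 2.46% in ependymal nuclei.

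**Figure D2:**
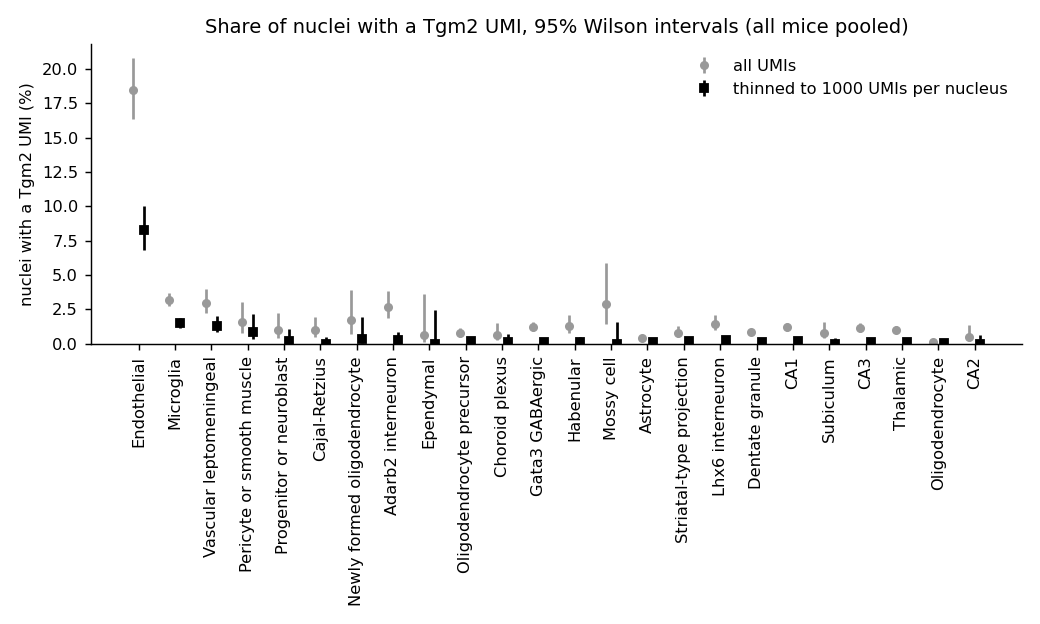
Share of nuclei with a Tgm2 UMI in each class (percent, all mice pooled), with 95% Wilson intervals, for all UMIs of a nucleus and after thinning to 1000 UMIs. Endothelial nuclei stand at 18.4% before and 8.27% after thinning, and dentate granule neurons go from 0.847% to 0.127%.

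Within the endothelial class Tgm2 was spread over many nuclei. Of the 1160 nuclei, 946 had no Tgm2 UMI, 160 had 1, 29 had 2, and 25 had 3 to 7. All 7 endothelial markers of the list (among them Flt1, a VEGF receptor, and the tight junction gene Cldn5) were detected in this cluster. The microglial class also held macrophages of the brain's borders, and their part can be read from their markers. In 168 nuclei with UMIs of at least 2 of 6 border macrophage markers, only 1 Tgm2 UMI was counted (1.96 CPM), although F13a1, the transglutaminase of the coagulation cascade, stood at 4049 CPM there. The 4874 nuclei with none of these markers held 177 of the 178 Tgm2 UMIs (16.8 CPM), with F13a1 at 0.855 CPM. The level of Tgm2 in microglia was thus kept without these macrophage-like nuclei, a split chosen after the data were seen.

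Over the 24 classes, the genes whose level was most like that of Tgm2 were Srgn (serglycin, the core protein of a secreted proteoglycan; r = 0.943 of log2(CPM + 1)), Exoc2 (an exocyst subunit; r = 0.937), Gbp5 (an interferon-induced guanylate-binding protein; r = 0.924), Bik (a BH3-only cell death gene; r = 0.921) and H2-Q4 (a class Ib histocompatibility gene with close paralogs that could share reads; r = 0.921). Srgn had 114 CPM in endothelial nuclei, 17.1 CPM in microglia and 0.108 CPM in dentate granule neurons. These correlations describe 24 class means from the same libraries among 17880 genes and carry no test. None of the other 9 members was near this likeness, the closest being Kdm5c at r = 0.60 and Setd1b at r = 0.52.

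The group comparisons asked whether Tgm2 differed with reproductive experience or stress in the classes with most of it. In endothelial nuclei, NP mice had 46.2 to 163 CPM (median of 82.1). Control RE mice had 56.3, 65.2, 71.6 and 124 CPM, and stress RE mice had 71.9, 77.4, 90.8, 102 and 143 CPM. The groups overlapped throughout, on 4 to 73 Tgm2 UMIs per mouse. The log2 fold change by edgeR was -0.25 (SE 0.33) for control RE against NP, 0.15 (SE 0.36) for stress RE against control RE and -0.10 (SE 0.32) for stress RE against NP. None passed an adjusted p of 0.05 (edgeR, adjusted p of 0.999 to 1.000). The mean CPM without TMM scaling was 93.8 ± 45.1 in NP and 97.0 ± 28.1 in stress RE mice, the opposite direction to the fitted value. This mean also counts each mouse alike whatever its depth, so the difference cannot be laid on the scaling alone. Within batches 2 and 3 the log2 ratios of the group means were 0.01 and -0.63 for control RE against NP, 0.35 and -0.07 for stress RE against control RE, and 0.35 and -0.70 for stress RE against NP. The sign thus differed between the batches in each comparison.

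In microglia, NP mice had 6.62 to 24.8 CPM of Tgm2 (median of 18.7), control RE mice 6.08, 8.04, 16.2 and 22.5 CPM, and stress RE mice 11.6, 16.4, 18.4, 18.8 and 21.2 CPM. The groups overlapped here as well. Log2 fold changes were -0.28 (SE 0.38), 0.35 (SE 0.39) and 0.07 (SE 0.34) in the same order of comparisons, and within batches 2 and 3 the log2 ratios were -1.04 and 0.38, 1.41 and -0.06, and 0.38 and 0.32. In dentate granule neurons, at 0.115 to 2.22 CPM per mouse, they were 0.39 (SE 0.50), -0.31 (SE 0.51) and 0.08 (SE 0.49), with -0.05 and 0.43, -0.24 and 0.21, and -0.30 and 0.64 within batches. Tgm2 passed the filter on low counts in only these 3 of the 23 classes tested, so in the other 20 no test of it was made.

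Summed over all nuclei of a mouse, Tgm2 was lowest in stress RE mice, but the difference did not pass the test. NP mice had 1.305 to 1.97 CPM (median of 1.85), control RE mice 1.11, 1.49, 1.56 and 1.85 CPM, and stress RE mice 0.944, 1.06, 1.20, 1.33 and 1.69 CPM. The groups overlapped, with stress RE mice up to 1.69 CPM and NP mice from 1.305 CPM. In such a sum, fewer cells of a type and less RNA per cell cannot be told apart. The log2 fold change of stress RE against NP was -0.41 (SE 0.18, unadjusted p = 0.0367, adjusted p = 0.999 by edgeR), within batches 2 and 3 -0.16 and -0.67. Without stress RE mouse 70, the lowest, it was -0.34 (SE 0.19, unadjusted p = 0.0900, adjusted p = 0.894 by edgeR), without NP mouse 31 -0.46, and without the vascular, choroid plexus and ependymal classes -0.25. With each of the 15 mice left out in turn, the unadjusted p (edgeR) was over 0.05 in 6 cases (NP mice 35, 37 and 73 and stress RE mice 43, 70 and 75). For control RE against NP it was -0.13 (SE 0.19, batches -0.08 and -0.36), a direction that turned without control RE mouse 66 (0.00329), and for stress RE against control RE -0.28 (SE 0.20, batches -0.08 and -0.30).

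The share of endothelial nuclei also differed between mice. Endothelial nuclei made up 1.12% ± 0.610 of the nuclei of NP mice, 0.938% ± 0.530 in control RE and 0.741% ± 0.185 in stress RE mice (SD). Across the 15 mice the Tgm2 level of the punch and the endothelial share had Pearson's r = 0.595 and Spearman's rho = 0.489. Endothelial Tgm2 is itself part of that sum and the class was picked for its Tgm2, so a positive r is built in and no p is given. Against Tgm2 counted outside endothelial nuclei, the endothelial share had r = -0.02. With all nuclei, r was 0.422 without mice 27 and 37, those farthest from the median share, and within batches it was 0.991 in batch 3, -0.14 in batch 2 (6 mice each) and 0.848 over the 3 mice of batch 1. Tgm2 outside endothelial nuclei was 1.31 ± 0.355 CPM in NP mice, 1.19 ± 0.259 CPM after control RE and 1.05 ± 0.295 CPM after stress RE, the same order as in the whole punch, and the part of the endothelial share in it was not tested.

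The 9 genes of H3K4 methylation were more evenly spread over classes than Tgm2. The pattern was not shared among them. Class means are given as descriptions, with the number of mice in which 1 class exceeded another. The 11 classes set against the 13 neuronal ones include progenitors or neuroblasts, which also hold young neurons. The largest cluster of that class (246 nuclei) had the GABAergic marker Gad2 at 686 CPM.

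**Figure D3:**
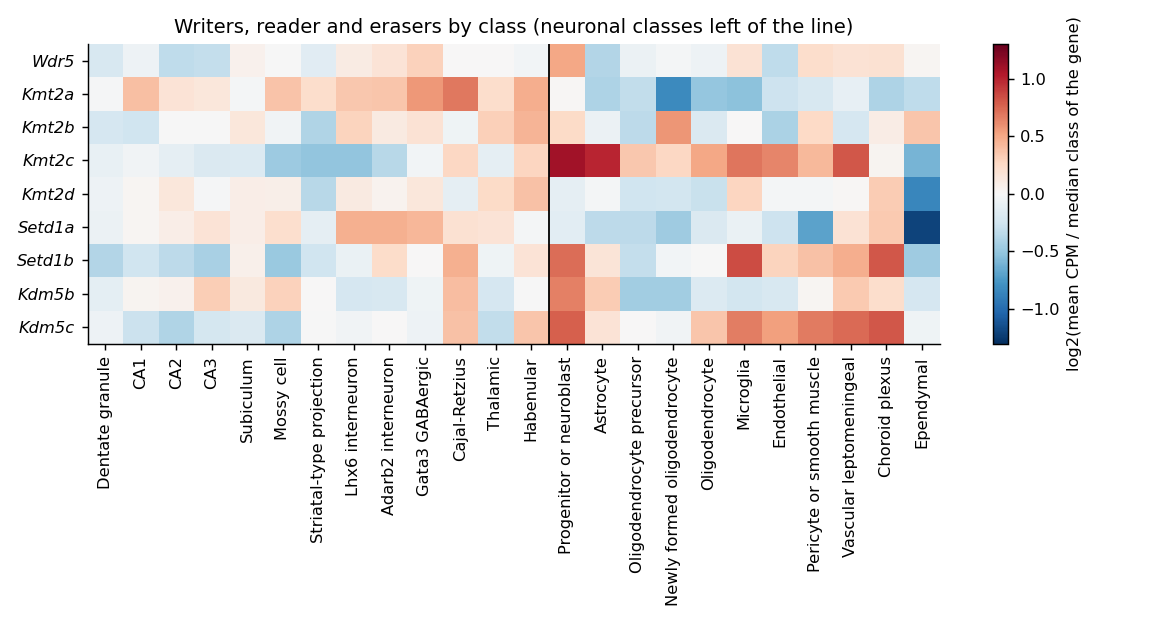
Level of the 9 genes other than Tgm2 (rows) in the 24 classes (columns, neuronal classes left of the line), as the log2 ratio of the class mean CPM to the median of the gene's class means; red is above and blue below that median. Kmt2a is mostly red in neuronal classes, at 461 CPM in Cajal-Retzius neurons. Kmt2c is mostly red in the other classes, at 578 CPM in progenitors or neuroblasts and 537 CPM in astrocytes.

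Among the methyltransferases, Kmt2a (MLL1, the catalytic subunit of a complex that holds menin) was higher in neurons. Its 13 neuronal class means ran from 282 to 461 CPM, and 10 of the 11 other classes lay below all of them, progenitors or neuroblasts at 288 CPM being the exception. With clusters drawn at the coarser Leiden resolution of 0.5 the count was again 10 of 11, but the exception was ependymal cells at 325 CPM. Cajal-Retzius neurons had 461 ± 72.2 CPM, Gata3 GABAergic neurons 422 ± 66.1 CPM and CA1 neurons 374 ± 64.5 CPM. Oligodendrocytes had 202 ± 24.4 CPM and were below CA1 neurons in 15 of 15 mice. The lowest level, 161 ± 30.4 CPM (n = 13), was that of newly formed oligodendrocytes. After thinning to 1000 UMIs a Kmt2a UMI was found in 30.7% of CA1 nuclei and 17.8% of oligodendrocytes, in the same order as the CPM.

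Kmt2c (MLL3, which with Kmt2d methylates H3K4 at enhancers) had the opposite order. It was highest in progenitors or neuroblasts at 578 ± 108 CPM (n = 10) and astrocytes at 537 ± 46.9 CPM. Of the 11 other classes, progenitors or neuroblasts among them, 8 lay above all 13 neuronal ones. Astrocytes had 2.05 times the level of CA1 neurons (261 ± 18.03 CPM) and exceeded them in 15 of 15 mice. Lhx6 interneurons, at 189 ± 15.8 CPM, were the lowest of the well-sampled neurons. The 3 non-neuronal classes not above all neuronal ones were newly formed oligodendrocytes at 325 CPM, choroid plexus at 277 CPM and ependymal cells at 178 ± 40.3 CPM (n = 7). At Leiden resolution 0.5 ependymal cells were at 342 CPM, and 10 of the 11 classes lay above all neuronal ones. Thinned to 1000 UMIs, 40.4% of astrocytes and 23.7% of CA1 neurons had a Kmt2c UMI. Over the 24 classes the log2 levels of Kmt2a and Kmt2c had r = -0.43.

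Kmt2d and Kmt2b varied less. Kmt2d was at 60.7 ± 10.5 CPM in microglia against 40.9 ± 7.499 CPM in oligodendrocytes, higher in 15 of 15 mice, and at 59.6 ± 17.6 CPM in thalamic against 47.8 ± 11.4 CPM in dentate granule neurons, again in 15 of 15. Kmt2b (MLL2) was at 39.4 ± 11.6 CPM in thalamic and 27.3 ± 5.65 CPM in dentate granule neurons, in 15 of 15 mice. Its highest mean, 47.3 ± 22.9 CPM in newly formed oligodendrocytes, rested on 88 UMIs and was 38.4 CPM at Leiden resolution 0.5, below habenular neurons at 43.1 CPM.

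The 2 SETD1 enzymes, which carry most of the trimethylation of H3K4 at promoters, differed from each other. Setd1a was highest in 3 GABAergic classes, at 39.6 ± 4.82 CPM in the Adarb2, 39.5 ± 12.3 CPM in the Lhx6 and 38.7 ± 6.70 CPM in the Gata3 class, while striatal-type projection neurons, also GABAergic, had the lowest neuronal mean at 26.4 CPM. Gata3 neurons exceeded astrocytes (22.8 ± 3.56 CPM) in 15 of 15 mice. Of the 11 classes not counted as neuronal, 8 lay below all neuronal ones, or 6 of 11 at Leiden resolution 0.5. Setd1b was at 46.8 ± 9.09 CPM in microglia, the highest class mean (at Leiden resolution 0.5 progenitors or neuroblasts were higher, at 53.3 CPM). The microglial mean was 2.34 times the 19.9 ± 2.45 CPM of dentate granule neurons and higher in 15 of 15 mice. Astrocytes (29.2 ± 6.67 CPM) and oligodendrocytes (26.0 ± 3.46 CPM) also exceeded dentate granule neurons in 15 of 15.

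Wdr5, the shared scaffold, was the most even of the 10 genes, between 15.3 ± 2.34 CPM in astrocytes and 28.2 ± 26.4 CPM in progenitors or neuroblasts, the latter on 50 UMIs and at 23.9 CPM at Leiden resolution 0.5. Gata3 neurons, at 24.6 ± 3.92 CPM, exceeded astrocytes in 14 of 15 mice. No neighbours in the order of its 24 class means differed by more than the SD of the difference within mice.

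Of the demethylases, Kdm5c, an X-linked gene, was lower in most neuronal classes. The 6 highest classes were choroid plexus at 120 ± 19.7 CPM (n = 13), progenitors or neuroblasts at 117 ± 23.0 CPM, leptomeningeal cells at 114 ± 22.5 CPM, pericytes or smooth muscle cells at 109 ± 45.0 CPM, microglia at 108 ± 13.9 CPM and endothelial cells at 98.6 ± 32.2 CPM, each above all 13 neuronal means. CA1 neurons had 56.1 ± 4.42 CPM and were below astrocytes, at 77.4 ± 7.38 CPM, in 15 of 15 mice. Kdm5b did not divide neurons from other cells. It was at 157 ± 33.4 CPM in progenitors or neuroblasts, 126 ± 13.3 CPM in astrocytes and 124 ± 6.16 CPM in CA3 neurons, against 91.4 ± 3.38 CPM in dentate granule neurons, with CA3 above the latter in 15 of 15 mice. Both oligodendrocyte precursors (73.03 ± 10.9 CPM) and newly formed oligodendrocytes (72.9 ± 19.0 CPM) were low. The pair of members most alike over classes was Setd1b and Kdm5c, at r = 0.87.

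The genes most like the mean pattern of these 9 were Kat5 (the acetyltransferase of the TIP60 complex; r = 0.853), Ipo9 (a nuclear import receptor; r = 0.819) and Ulk1 (a kinase that starts autophagy; r = 0.817). Of these, Kat5 had 15.2 CPM in microglia and 7.59 CPM in dentate granule neurons.

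None of the 10 genes passed the test between groups in any class. Over 23 classes with at least 3 mice in both groups, 513 tests were made of members that passed the filter on low counts: 165 for control RE against NP, 174 for stress RE against control RE and 174 for stress RE against NP. All 10 members passed that filter in dentate granule neurons and microglia, 9 (all but Tgm2) in most other classes, 6 in endothelial nuclei, and 4 (Kmt2a, Kmt2c, Kdm5b and Kdm5c) in Cajal-Retzius neurons, newly formed oligodendrocytes, pericytes or smooth muscle cells and progenitors or neuroblasts. At an adjusted p of 0.05, 0 were called in each (edgeR, lowest adjusted p = 0.463), where the background over all genes and classes was 0%, 0.00146% and 0% in that order. DESeq2 called 0 as well. At an unadjusted p of 0.05, 4 member tests passed in each comparison (2.42%, 2.30% and 2.30%), against a background of 3.16%, 2.93% and 3.75% over all genes. With 4 tests each, the member shares were near those of all genes, and the tests share the same mice.

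The 12 tests with an unadjusted p under 0.05 fell on 6 genes. Kmt2d was lower in control RE than in NP mice in oligodendrocytes (log2 of -0.38, SE 0.12) and Adarb2 interneurons (-0.49, SE 0.17), and lower in stress RE than in NP mice in oligodendrocytes (-0.26, SE 0.12) and Lhx6 interneurons (-0.53, SE 0.20). In oligodendrocytes, control RE mice had 32.6, 33.1, 36.6 and 38.4 CPM and NP mice 38.8 to 63.2 CPM (median of 44.6), the highest being NP mouse 31. All 4 control RE mice were below all 6 NP mice, as for 0.209% of the genes tested in this class, and within batches 2 and 3 the differences were -0.30 and -0.25. Without NP mouse 31 the log2 fold change of Kmt2d for control RE against NP was -0.29 (SE 0.10) in oligodendrocytes and -0.47 (SE 0.17) in Adarb2 interneurons. For stress RE against NP it was then -0.16 (SE 0.10, unadjusted p = 0.108 by edgeR) in oligodendrocytes and -0.34 (SE 0.16, unadjusted p = 0.0543) in Lhx6 interneurons, neither under 0.05. Without stress RE mouse 70 it was -0.27 (SE 0.13, unadjusted p = 0.0542 by edgeR) and -0.57 (SE 0.21, unadjusted p = 0.0150).

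Setd1b was among these tests in different comparisons, with control RE the lower group in both dentate granule neurons and microglia. In dentate granule neurons it was lower in control RE mice, at 16.3, 17.8, 18.9 and 18.9 CPM, than in NP mice at 18.9 to 27.2 CPM (median of 20.3), with a log2 fold change of -0.20 (SE 0.09) of -0.12 and -0.17 within batches and of -0.14 (SE 0.07, unadjusted p = 0.0678 by edgeR) without NP mouse 31. The groups did not overlap, by 18.89 against 18.92 CPM at the border, as for 0.454% of genes tested in the class. In microglia it was higher in stress RE mice, at 51.1, 51.8, 52.2, 52.9 and 62.8 CPM, than in control RE mice at 36.5, 37.1, 41.3 and 45.0 CPM (log2 of 0.41, SE 0.16, within batches 0.36 and 0.54, without stress RE mouse 70 0.42). These groups did not overlap, as for 0.656% of genes tested in microglia, but NP mice reached from 36.3 to 63.7 CPM and so covered both. The other 6 tests were of Setd1b and Setd1a in choroid plexus, Wdr5 and Kmt2a in mossy cells, and Kdm5c and Kmt2a in pericytes or smooth muscle cells. Of these, Setd1b in choroid plexus (stress RE against NP) went from a log2 fold change of -0.67 to -0.59 (SE 0.30, unadjusted p = 0.0692 by edgeR) without NP mouse 31. Kmt2a in pericytes or smooth muscle cells (stress RE against control RE) went from -0.60 to -0.50 (SE 0.25, unadjusted p = 0.0558 by edgeR) without stress RE mouse 70. The lowest adjusted p of these 12 was 0.640 (edgeR), for Kmt2a in mossy cells.

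Directions were alike over classes for some members, which share the same mice and the same libraries. How often other genes were alike over classes was not counted. Fitted fold changes of control RE against NP were negative for Kmt2b in 16 of 16 classes (median log2 of -0.20), for Setd1b in 15 of 15 (-0.23), for Kmt2a in 18 of 21 (-0.14) and for Kmt2d in 15 of 17 (-0.30). Against the same NP mice, stress RE gave a negative value for Kmt2d in 18 of 18 classes (-0.28) and for Kmt2a in 19 of 22 (-0.11). It was also negative for Kmt2b in 16 of 17 (-0.12), Setd1a in 14 of 17 (-0.10) and Setd1b in 12 of 16 (-0.16). Both comparisons share the NP mice. Without NP mouse 31 the counts for control RE against NP were 11 of 15 for Kmt2b (median log2 of -0.08), 14 of 15 for Setd1b (-0.14), 14 of 19 for Kmt2a (-0.04) and 12 of 16 for Kmt2d (-0.15). For stress RE against NP they were 15 of 17 for Kmt2d (-0.16) and 12 of 20 for Kmt2a (-0.01). In the same comparison they were 8 of 16 for Kmt2b (0.00158), 10 of 16 for Setd1a (-0.04) and 12 of 16 for Setd1b (-0.07). Kmt2c, Kdm5b and Kdm5c had fitted values above 0 in 16, 13 and 15 of 21 classes for control RE against NP, but by the ratio of mean CPM, without the TMM scaling, in only 10, 9 and 11 of 21. In the whole punch their fitted values were 0.03, 0.03 and 0.05 and their ratios of mean CPM -0.04, -0.04 and -0.03, so that their direction differed between these measures. The median over all member tests was -0.06, -0.02 and -0.08 in the 3 comparisons.

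**Figure D4:**
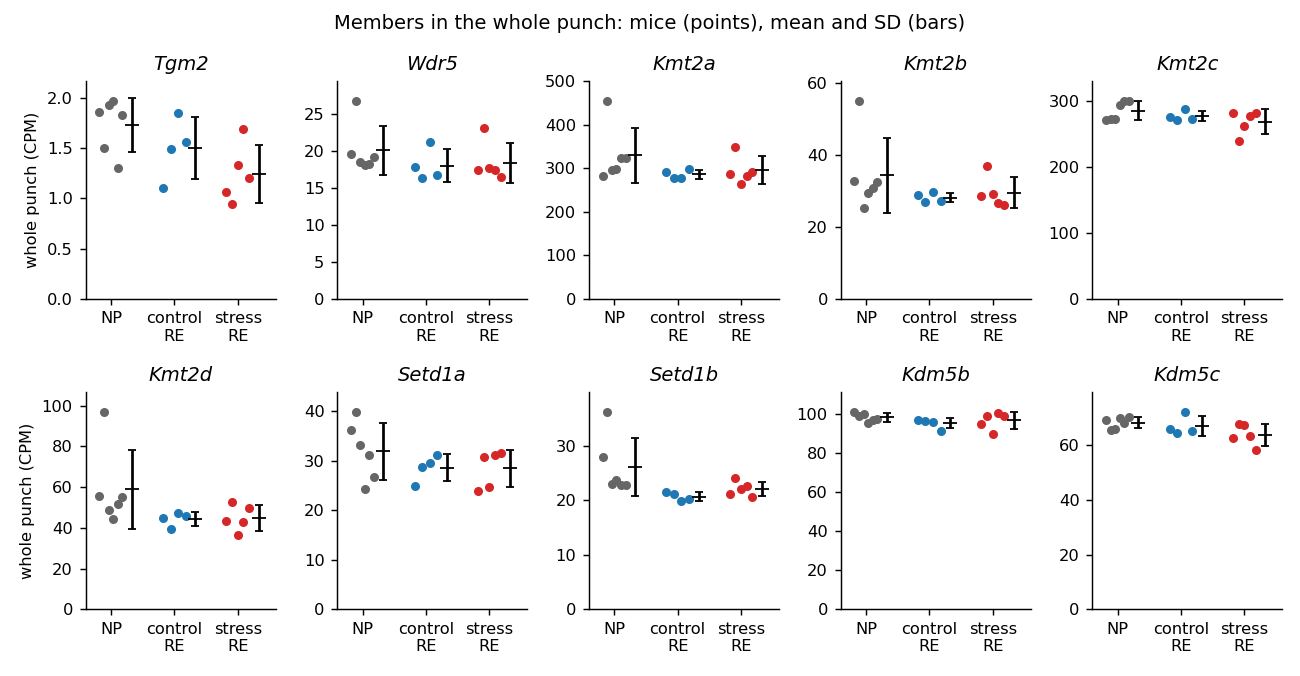
Level of each of the 10 genes summed over all kept nuclei of a mouse (CPM, each panel from 0), by group; points are mice, coloured by group, and black bars give the mean and SD. For Kmt2a, Kmt2b and Kmt2d the highest point is NP mouse 31 (455, 55.0 and 97.1 CPM), and Setd1b is the gene whose control RE mice (19.8 to 21.5 CPM) all lie below the NP mice.

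In the whole punch the levels of several of these genes were set apart in 1 mouse. Kmt2d had 44.2 to 97.1 CPM in NP mice (median of 53.6), 39.7, 44.7, 45.8 and 47.1 CPM in control RE mice, and 36.5, 43.02, 43.1, 49.7 and 52.9 CPM in stress RE mice. NP mouse 31 stood at 97.1 CPM, with the next NP mouse at 55.7 CPM. For control RE against NP the log2 fold change of Kmt2d was -0.33 (SE 0.19), -0.24 and -0.12 within batches and -0.14 without mouse 31. The same mouse had the highest level of the group for Kmt2b (55.0 CPM, next 32.7 CPM), Kmt2a (455 CPM, next 324 CPM) and Wdr5 (26.8 CPM, next 19.6 CPM). Without it the log2 fold change of control RE against NP was -0.03 for Kmt2b (-0.21 with it), -0.02 for Kmt2a (-0.13) and 0.01 for Wdr5 (-0.08).

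The shallow unnamed nuclei, most frequent in mouse 31, held more of these transcripts per UMI when pooled over mice. Mouse 31 gave 26.1% of these nuclei, so the pooled values mix differences between mice with those between nuclei. They were not compared within a mouse. Pooled over mice, Kmt2d was at 89.1 CPM there against 48.6 CPM in the named classes (1.83 times), Kmt2b at 43.8 against 29.8 CPM (1.47 times) and Kmt2a at 385 against 299 CPM (1.29 times), while Tgm2 was equal at 1.49 and 1.50 CPM. In the named classes only, a restriction chosen after the data were seen, mouse 31 still had 94.5 CPM of Kmt2d, 54.1 CPM of Kmt2b and 444 CPM of Kmt2a. The group fits of the punch were also made on nuclei of named classes only. No member was called there, and only Setd1a in stress RE against control RE changed sign (0.000187). The part of the shallow nuclei in the group differences was not tested beyond this.

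Setd1b was the only member with an unadjusted p under 0.05 for control RE against NP in the punch. Control RE mice had 19.8, 20.3, 21.1 and 21.5 CPM, NP mice 22.7 to 36.2 CPM (median of 23.4), and stress RE mice 20.6, 21.2, 22.1, 22.5 and 24.0 CPM. All control RE mice were below all NP mice, as for 0.817% of the 21165 genes tested, and stress RE mice overlapped both groups. The log2 fold change was -0.26 (SE 0.12, unadjusted p = 0.0413, adjusted p = 0.928 by edgeR), -0.14 and -0.17 within batches and -0.14 without NP mouse 31 (unadjusted p = 0.0962 by edgeR). The unadjusted p was over 0.05 for 6 of the 15 mice left out in turn (NP mice 27 and 31 and each control RE mouse). With batch as a term the log2 fold change was -0.13 (unadjusted p = 0.130 by edgeR). The fitted log2 fold change was 0.10 (SE 0.12) for stress RE against control RE.

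For the remaining members the punch showed small differences. Setd1a had 31.9 ± 5.80 CPM in NP, 28.6 ± 2.65 CPM after control RE and 28.4 ± 3.74 CPM after stress RE. Kmt2c had 286 ± 14.2, 278 ± 7.39 and 269 ± 18.6 CPM, Kdm5b 98.3 ± 2.28, 95.3 ± 2.50 and 96.8 ± 4.41 CPM, and Kdm5c 68.0 ± 1.99, 66.8 ± 3.61 and 63.7 ± 3.93 CPM in the same order. Fitted fold changes of Kdm5b and Kdm5c lay between -0.07 and 0.05 with SEs of 0.06 to 0.08, the tightest of the 10 genes, and their groups overlapped. For Setd1a the fitted value of control RE against NP went from -0.080 to -0.007 without NP mouse 31. That of stress RE against NP went from -0.084 to -0.026.

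**Figure D5:**
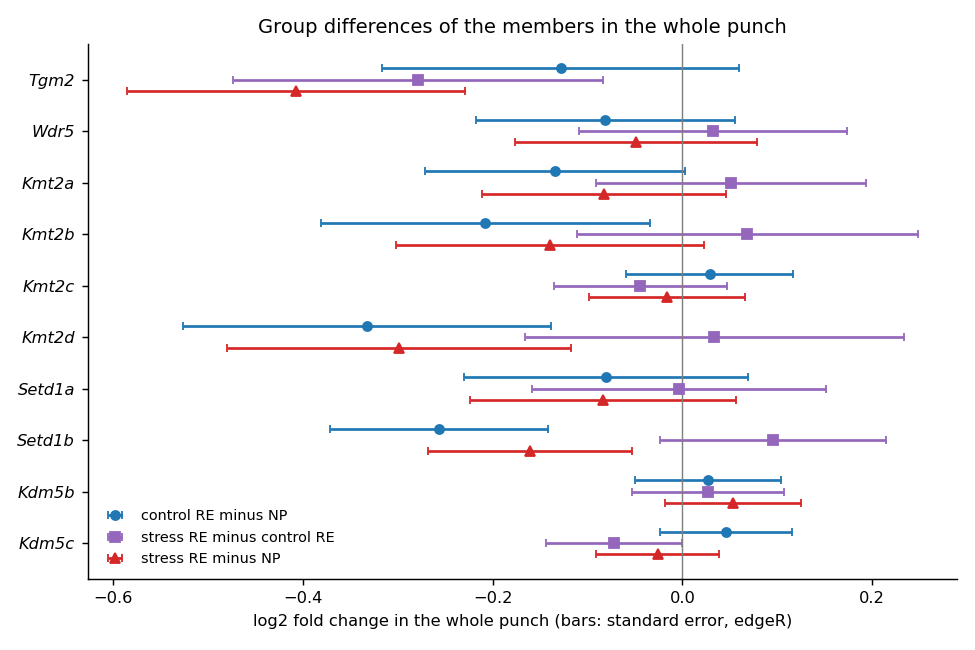
Log2 fold changes of the 10 genes in the summed punch for the 3 comparisons (edgeR; points with bars of 1 SE), with a colour and marker for each comparison. The lowest value is -0.41 for Tgm2 in stress RE against NP mice, and 0 of the 30 values passed an adjusted p of 0.05.

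At an adjusted p of 0.05, 0 of the 10 members were called in the punch in each comparison (edgeR, lowest adjusted p = 0.928; DESeq2 also called 0). The background over the 21165 genes tested was 0.00472% for control RE against NP and 0% for both comparisons with stress RE. At an unadjusted p of 0.05, 1 member passed for control RE against NP (Setd1b, background of 3.98%), 0 for stress RE against control RE (background of 0.85%) and 1 for stress RE against NP (Tgm2, background of 4.02%). The median log2 fold change of the 10 was -0.10, 0.03 and -0.08. These medians include NP mouse 31, and medians without it were not taken. Without it the value of control RE against NP went from -0.21 to -0.03 for Kmt2b, but from -0.13 to -0.16 for Tgm2.

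No other gene of the pathway passed the test between groups. Of 47 genes in the list, 44 were tested in the punch and 0 were called, with 1 unadjusted p under 0.05 in 132 tests (1 of 44 for control RE against NP and 0 of 44 in the other comparisons, where all genes had 3.98% for control RE against NP, 0.85% for stress RE against control RE and 4.02% for stress RE against NP). Over classes 0 of 1902 tests were called (edgeR, lowest adjusted p = 0.357), and 41 (2.16%) had an unadjusted p under 0.05. By comparison these were 2.61% for control RE against NP, 1.70% for stress RE against control RE and 2.18% for stress RE against NP. All genes had 3.16%, 2.93% and 3.75% in that order. Among the shared core of the complexes, Ash2l had 31.4 ± 1.76 CPM and Rbbp5 27.4 ± 1.50 CPM in the punch over 15 mice, with log2 fold changes of -0.03 to 0.05. Among complex subunits, Kdm6a (an H3K27 demethylase of the Kmt2c and Kmt2d complexes) was at 323 ± 35.9 CPM in oligodendrocytes and 68.4 ± 11.2 CPM in mossy cells. Psip1, a chromatin reader that tethers the menin complex, had 134 ± 18.8 CPM in the punch, and its log2 fold change of stress RE against NP was 0.18.

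Of the other methyltransferases and relatives, Smyd3 reached 653 ± 59.4 CPM in striatal-type projection neurons (n = 8) against 137 ± 18.05 CPM in CA2 neurons, and Kmt2e, a relative without clear catalytic activity, 429 ± 31.7 CPM in progenitors or neuroblasts. Kdm5a, a relative of the erasers described, was at 197 ± 26.2 CPM in progenitors or neuroblasts and 69.3 ± 12.6 CPM in mossy cells. Rcor1, a corepressor that binds the H3K4 demethylase Kdm1a, was at 78.0 ± 3.76 CPM in the punch. Among readers of H3K4 methylation, Bptf (a subunit of the NURF remodeller) had 191 ± 14.3 CPM in the punch and Dido1 was highest in microglia at 147 ± 13.9 CPM. Of the other transglutaminases, F13a1 had 4.57 ± 1.89 CPM and Tgm4 2.15 ± 0.379 CPM in the punch, F13a1 with 183 ± 146 CPM in the microglial class. For none of these 12 genes was the lowest adjusted p in the punch under 0.92 (edgeR).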

How the data were processed

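Single-nucleus libraries (10x Chromium 3′) of 15 mice were used. The authors deposited gene-by-barcode UMI counts per mouse, made with Cell Ranger (version 7.1.0 in the submitters' processing notes) on mm10, with no normalization. Corrections for ambient RNA and the authors' doublet removal and scaling are not in these counts.

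Barcodes with at least 200 genes and at most 5% mitochondrial UMIs were kept, and doublets were removed by Scrublet score at 0.8% of barcodes per 1000 barcodes. Nuclei were clustered (scanpy 1.11.5; 2000 variable genes, 30 principal components, 15 neighbours, Leiden resolution 1, giving 37 clusters) without regard to group. Clusters were named from 26 marker lists, needing 3 markers at 5 CPM or more and 2 times the median cluster, and a mean log2 fold of 2 (3 for GABAergic classes). These thresholds were set after clusters were seen, and classes may differ from the study's. The 10 genes and all lists were chosen with earlier results of these data known.

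UMIs were summed per mouse and class (at least 10 nuclei, 3 mice per group) and over all kept nuclei of a mouse, called the punch. Groups were compared by edgeR 4.0.16 (R 4.3.3, quasi-likelihood, TMM, filterByExpr, all 3 groups in 1 fit without covariate), with Benjamini-Hochberg adjustment over all genes tested in a class or the punch. Within-batch values are log2 ratios of mean CPM. Alternatives were DESeq2 1.42.0, no filter on low counts, batch as a term, at least 25 nuclei per mouse, Leiden resolution 0.5, pooled counts, ratios of mean CPM without TMM, doublets kept, the punch without vascular, choroid plexus and ependymal classes, and leaving out each mouse. The fits were tested on simulated data with 200 changed genes, for stress RE against control RE. Of the genes given a log2 change of 1, 47% were found in the punch, 74% in dentate granule neurons and 38% in endothelial nuclei. For those given a log2 change of 2 the shares were 81%, 88% and 88%. Changed genes were drawn at random from all tested, so these shares need not hold for a gene as low as Tgm2. Of the genes called, 3.03%, 6.90% and 3.08% were false. Named beyond the 10 genes were the 2 of highest punch level in each pathway list, the 5 genes most like Tgm2 and the 3 most like the other members over classes. Wilson intervals (95%) and the 3 counts that a count of 0 allows cover counting error only. Columns of samples not used numbered 0.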

Additional observations from a re-analysis of the deposited data

Results flagged for a closer look

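In 8 of 42 group and gene combinations examined, 1 mouse lay far from the rest of its group by Dixon's criterion, which chance meets in about 1 of 20 groups. In NP mice this was mouse 31 in 4 cases: it had the highest whole-punch level of Wdr5 (26.8 CPM, next 19.6 CPM), Kmt2a (455 CPM, next 324 CPM), Kmt2b (55.0 CPM, next 32.7 CPM) and Kmt2d (97.1 CPM, next 55.7 CPM). In stress RE mice, mouse 70 was highest for Wdr5 (23.1 CPM, next 17.6 CPM) and Kmt2b (36.8 CPM, next 29.1 CPM). These were the 2 mice with the largest shares of shallow unnamed nuclei, 18.5% and 9.29%, and both belonged to batch 1. Control RE mouse 88 was lowest for Kdm5b (91.6 CPM, next 96.2 CPM). In pericytes or smooth muscle cells, stress RE mouse 70 had 40.0 CPM of Tgm2, from 2 UMIs in 15 nuclei.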

How the results depend on the processing

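No member and no gene of the pathway list was called under any setting tried. Over both lists together the lowest adjusted p was 0.169 in a class and 0.747 in the punch (edgeR or DESeq2). Of 126 punch fold changes recomputed with another test, filter, covariate or set of nuclei, 118 kept their sign and 8 reversed. With batch as a term, the log2 fold change of control RE against NP became 0.0343 for Wdr5, -0.0241 for Kmt2c and 0.0323 for Setd1a, and that of stress RE against control RE became -0.0477 for Wdr5, -0.00805 for Kmt2a, -0.0442 for Kmt2b and -0.0736 for Kmt2d. With nuclei of named classes only, a setting chosen after the data were seen, Setd1a in stress RE against control RE became 0.000187. The ratio of mean CPM without TMM, also added after the data were seen, reversed 4 of 30 punch values: for control RE against NP it was -0.0409 for Kmt2c, -0.0448 for Kdm5b and -0.0259 for Kdm5c, and for stress RE against NP -0.0216 for Kdm5b. The cause was not tested.

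Leaving out 1 mouse reversed 21 of 450 fold changes, all small. For control RE against NP the range was -0.25 to 0.00329 for Tgm2, reversed without control RE mouse 66, and -0.17 to 0.0144 for Wdr5. For stress RE against control RE it was -0.0844 to 0.13 for Wdr5, -0.0359 to 0.11 for Kmt2a, -0.0469 to 0.11 for Kmt2b, -0.0473 to 0.12 for Kmt2d, -0.0793 to 0.0617 for Setd1a and -0.0146 to 0.0745 for Kdm5b. For stress RE against NP it was -0.17 to 0.0333 for Wdr5, -0.17 to 0.0133 for Kmt2a, -0.25 to 0.0274 for Kmt2b and -0.0687 to 0.0249 for Kmt2c. In stress RE against control RE, the lowest values of Wdr5, Kmt2a, Kmt2b and Kmt2d were those without stress RE mouse 70. In stress RE against NP, the highest values of Wdr5, Kmt2a and Kmt2b were those without NP mouse 31. The correlation of Tgm2 with the endothelial share ran from r = 0.519 without NP mouse 37 to 0.788, and was 0.422 without mice 27 and 37.

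At Leiden resolution 0.5, 4 of 240 class levels moved by more than their SD, all in ependymal cells, and with counts pooled over mice 0 did. Endothelial nuclei ranked first for Tgm2 in both. Thinning moved 23 of 24 shares of nuclei with a Tgm2 UMI. No paired analysis was possible because each mouse belongs to 1 group and its number pairs it with no other. Low counts limit Tgm2 in particular, at 50 to 136 UMIs per mouse.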
